A study of Mus musculus with 18 samples.

Results

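Burst-forming unit erythroid progenitors (BFU-E) of steady-state bone marrow (BM) were compared with multipotent progenitors (MPP) of the stressed spleen. Each population was sequenced in 3 RNA libraries, so the comparison rests on 6 of the 18 samples of the series, or 6 of its 12 RNA samples. All mice were of the strain B6SJL. The BM BFU-E came from mice at steady state, and the MPP came from spleens at day 8 after the hosts had been lethally irradiated and given unfractionated BM cells. The series also holds BFU-E from such spleens, used below as a 3-library check, and per its design text the splenic MPP were sequenced for internal comparison. Both populations were depleted of cells carrying B220, CD4, CD8, Gr-1 or Ter-119 and then sorted by flow cytometry with antibodies that included c-Kit, CD71, CD9, CD24a, CD150, CD133 and Sca1. The titles give BM BFU-E as Sca-neg and MPP as Sca-pos. Steady-state sorts used Qdot655 for the biotinylated antibodies, and spleen sorts used Qdot605. Differentiation stage, tissue, irradiation with transplantation, and that stain therefore change together between the groups and cannot be told apart. The labels do not say whether the 3 libraries of a group came from separate animals, so the p-values measure only the spread between these libraries.

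MPP are immature cells that can still form several blood lineages, and in mice they carry the surface antigen Sca-1, encoded by Ly6a. BFU-E stand further along: they are the early progenitors committed to red cells, lie close to megakaryocyte progenitors, and pass through the colony-forming unit erythroid (CFU-E) stage before they make haemoglobin. After irradiation and transplantation the mouse spleen becomes a main site of red cell production, so that its progenitors form under a demand that resting marrow does not meet.

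Levels are given as RPKM, reads per kilobase of exon, scaled to the total reads of the library, and differences as BM BFU-E minus MPP on log2(RPKM + 1), a scale that understates the change of genes with low levels. The libraries are named BM 1, BM M2, BM 3 and MPP 1 to 3 after the deposited columns, and values are listed in that order. The BM libraries hold 17213000, 15360000 and 12885000 reads and the MPP libraries 21872000, 10972000 and 14267000 reads, to the nearest 1000, as recovered from the steps between low RPKM values. BM levels were read from another deposited table than the MPP levels, and both tables hold the stress spleen BFU-E with equal RPKM for 22716 of 22716 joined genes. The BM libraries differed more from each other (pairwise correlation of log2 levels 0.708 to 0.797) than the MPP libraries did (0.918 to 0.933). Of the 9936 genes tested, 6.31%, 1.68% and 15.4% were at 0 in the 3 BM libraries, against 0.302% to 0.624% in the MPP libraries. Of all tested genes, 62.1% were lower in BM BFU-E, and the median difference was -0.19, so gene groups are set beside that median. In bulk RNA, fewer cells of a type and less RNA per cell cannot be told apart.

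In limma with Benjamini-Hochberg adjustment (BH) over all 9936 genes, 19 genes (0.191%) passed an adjusted p of 0.05. Of these, 9 were higher in BM BFU-E (0.0906% of genes tested) and 10 were lower (0.101%), and 1229 had an unadjusted p under 0.05, of which 409 were higher (4.12%) and 820 lower (8.25%). The 9 higher genes were F13a1, Ly6c2, Irf8, Cd209a, Ahnak, Lgals1, Rgs10, Optn and Pf4. The lower genes were Podxl, Ly6a, Casp12, Hes1 and Ctse, together with 4 microRNA hairpins and 1 small nucleolar RNA. In 699 genes (7.04%) every BM library lay above every MPP library, and in 1335 (13.4%) every BM library lay below. Leaving out MPP 2 or MPP 3 left 0 calls, with 683 and 666 genes at an unadjusted p under 0.05. Without MPP 1 there were 6 calls, 4 of them among the 19, and without BM 1 there were 12, 8 of them among the 19. Without BM M2 there were 62, of which 16 were among the 19.

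**Figure D1:**
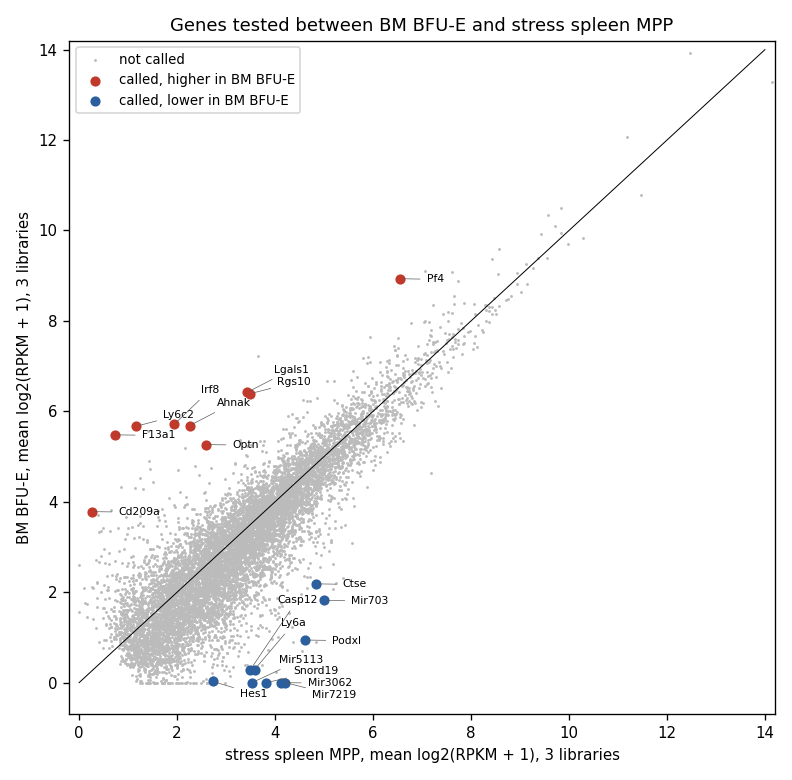
Mean log2(RPKM + 1) of each of the 9936 genes tested in BM BFU-E (vertical axis) against stress spleen MPP (horizontal axis), 3 libraries each, with the line of equal levels. The 9 genes called higher in BM BFU-E lie above the line and the 10 called lower lie below it, and 4 of those sit at 0 in BM BFU-E.

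Ly6a followed the gate. This gene of the Sca-1 antigen, by which the populations are labelled, had 0, 0.822 and 0 RPKM in BM BFU-E, against 11.4, 11.5 and 10.03 RPKM in MPP. The difference was -3.29 (SE 0.43, limma adjusted p = 0.0438), and the groups did not overlap. It checks the labels and is no finding. In the stress spleen BFU-E, also sorted as Sca-neg, it was at 0.089, 0 and 0.407 RPKM.

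The other sort antigens did not pass the test. Kit, the receptor for stem cell factor, had 28.4, 34.2 and 31.9 RPKM in BM BFU-E, against 46.0, 46.6 and 46.2 RPKM in MPP (difference -0.54, limma adjusted p = 0.277). Slamf1, which encodes CD150, had 4.73, 4.98 and 3.30 RPKM in BM BFU-E, against 14.7, 12.4 and 15.4 RPKM in MPP (difference -1.52, limma adjusted p = 0.128). Cd9, a tetraspanin abundant on megakaryocytes and platelets, had 80.3, 53.4 and 85.8 RPKM in BM BFU-E and 42.1, 33.4 and 36.8 RPKM in MPP (difference 0.92, limma adjusted p = 0.176). For these 3 genes the libraries of one group all lay on one side of those of the other. Tfrc, the transferrin receptor CD71, did not overlap either, with 3.63, 6.29 and 3.43 RPKM in BM BFU-E, against 12.5, 7.02 and 8.67 RPKM in MPP (difference -0.93, limma adjusted p = 0.396). Cd24a overlapped between the groups, with 15.2 to 37.2 RPKM in BM BFU-E and 31.2 to 36.2 RPKM in MPP, and its difference of -0.45 turned to 0.66 with the BM columns of the 12-library table described at the end. Prom1, which encodes CD133, was listed at 0 in all 3 BM libraries and at 0.592, 0 and 0.104 RPKM in MPP, and was too low to be tested.

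Most megakaryocyte genes tested, 20 of 23, lay higher in BM BFU-E, and Pf4 was called. Pf4 encodes platelet factor 4, a chemokine stored in platelet granules, and lies on the forward strand at chr5:90772435-90773383 (mm10). It had 413, 562 and 500.0 RPKM in BM BFU-E, against 96.5, 95.1 and 86.1 RPKM in MPP. The lowest BM library exceeded the highest MPP library, with means of 492 ± 75.1 RPKM in BM BFU-E and 92.5 ± 5.63 RPKM in MPP (SD, n = 3 each). The difference was 2.39 (SE 0.18, limma adjusted p = 0.0134), and edgeR's quasi-likelihood test on the recovered whole reads gave an adjusted p of 0.00258.

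Of the 26 megakaryocyte genes listed, 23 were tested. Pf4 was the only member called (4.35%, against 0.0906% of all genes called higher), 3 members lay lower in BM BFU-E, and the median difference was 0.92, against -0.19 over all genes. The groups did not overlap in 17 of the 23: 15 lay higher in BM BFU-E (65.2%, against 7.04% of all genes tested) and 2 lower (8.70%, against 13.4%). The median was 1.01, 0.90 and 0.79 when BM 1, BM M2 and BM 3 were each set against the MPP mean, so no single BM library carried it. It stayed above the median of all genes in each of 12 alternative scalings, pseudocounts and left-out libraries. Summed over the list, the RPKM ran from 1314 to 1516 in BM BFU-E and from 551 to 634 in MPP.

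Among the members just short of the test, Rab27b, a small GTPase of platelet granule release, had 24.5, 16.6 and 20.2 RPKM in BM BFU-E and 5.52, 4.24 and 6.203 RPKM in MPP (difference 1.76, limma adjusted p = 0.0702). Itga2b, the CD41 integrin chain of the fibrinogen receptor, had 118, 177 and 118 RPKM in BM BFU-E and 66.1, 63.3 and 52.2 RPKM in MPP (difference 1.15, limma adjusted p = 0.0981). For both every BM library was above every MPP library. Surface receptors of platelets varied more: Gp1bb, a chain of the von Willebrand factor receptor, had 8.86, 10.4 and 15.9 RPKM in BM BFU-E and 4.34, 3.12 and 3.35 RPKM in MPP, while Gp9, another chain of it, had 8.93, 10.1 and 0 RPKM in BM BFU-E and 11.1, 10.1 and 6.43 RPKM in MPP. The exceptions to the direction were Gp9, Selp and Ppbp. Selp, the adhesion molecule P-selectin, had 11.4, 7.50 and 1.38 RPKM in BM BFU-E and 17.9, 13.4 and 17.8 RPKM in MPP. Ppbp, a chemokine of platelet granules like Pf4, was listed at 0 in all 3 BM libraries and had 4.25, 4.32 and 2.93 RPKM in MPP (limma adjusted p = 0.0676).

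**Figure D2:**
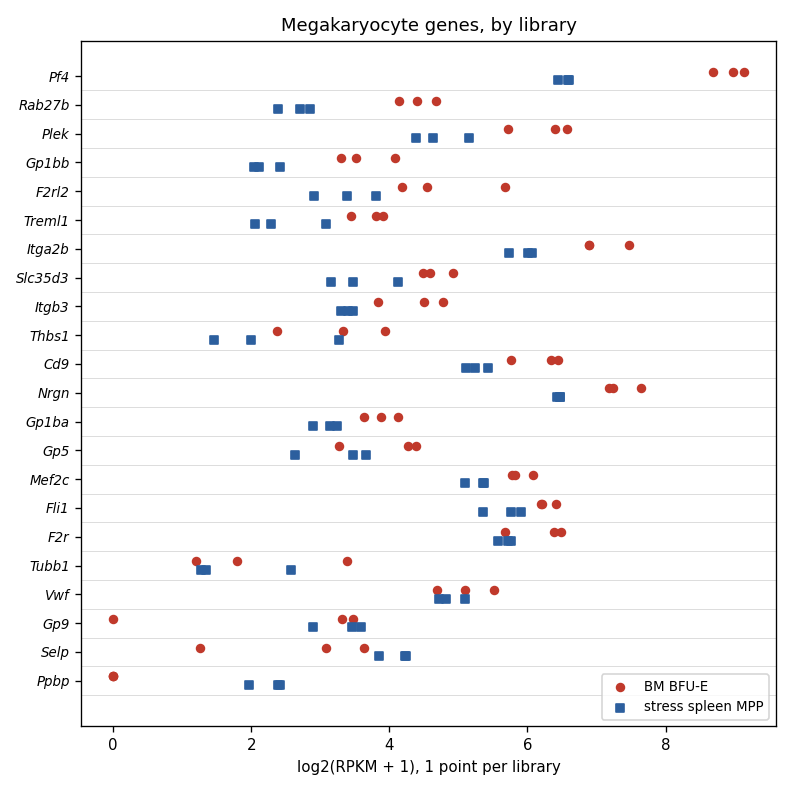
Level of 22 of the megakaryocyte genes tested, as log2(RPKM + 1) on the horizontal axis, with 1 point per library for BM BFU-E (circles) and stress spleen MPP (squares). The BM points lie right of the MPP points without overlap for 14 of the genes plotted and left of them for Selp and Ppbp.

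Of 25 monocyte and granulocyte genes tested, 3 were called higher in BM BFU-E (12%, against 0.0906% of all genes tested). F13a1 encodes the catalytic A chain of clotting factor XIII, which monocytes, macrophages and megakaryocytes all make, and lies on the reverse strand at chr13:36867178-37050244. It had 29.8, 51.4 and 54.2 RPKM in BM BFU-E, against 0.572, 1.21 and 0.311 RPKM in MPP. The lowest BM library was far above the highest MPP library, and the difference of 4.75 (SE 0.39, limma adjusted p = 0.0134) was the widest of the 9 genes called higher. Ly6c2, the gene of the monocyte surface antigen Ly6C, on the reverse strand at chr15:75108161-75111949, had 40.2, 48.2 and 64.2 RPKM in BM BFU-E and 3.39, 0.688 and 0.529 RPKM in MPP (difference 4.50, SE 0.46, limma adjusted p = 0.0222). Its near-identical copy Ly6c1 was listed at 0 in all 6 libraries, so reads of both may have been counted under Ly6c2. Irf8, a transcription factor needed for monocytes and dendritic cells, on the forward strand at chr8:120736358-120756692, had 38.7, 75.2 and 46.8 RPKM in BM BFU-E and 6.31, 1.19 and 2.55 RPKM in MPP (difference 3.77, SE 0.48, limma adjusted p = 0.0429). In all 3 genes the groups stood apart, and MPP 1 was the highest MPP library in Ly6c2 and Irf8.

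Of the 37 genes of that list, 25 were tested, 18 were higher and 7 lower in BM BFU-E, and the median difference was 1.49. Without overlap, 9 lay higher (36%, against 7.04% of all genes tested) and 2 lower (8%, against 13.4%). The BM libraries disagreed: the median against the MPP mean was 0.19 for BM 1, 2.18 for BM M2 and 1.97 for BM 3. It stayed above the median of all genes in each of 12 alternative scalings, pseudocounts and left-out libraries. The summed RPKM of the 33 listed genes in the tables ran from 400 to 977 in BM BFU-E and from 94.5 to 418 in MPP. Mpo, a granule enzyme of myeloid precursors, had 110, 217 and 138 RPKM in BM BFU-E, against 66.4, 3.82 and 5.01 RPKM in MPP. Elane, the neutrophil elastase of the same granules, had 24.6, 54.2 and 72.9 RPKM in BM BFU-E and 17.5, 0 and 0 RPKM in MPP. MPP 1 thus stood above MPP 2 and MPP 3 in both. Of the late neutrophil genes, S100a9 had 0, 29.3 and 50.5 RPKM in BM BFU-E and 96.4, 23.3 and 0.272 RPKM in MPP, and Camp was listed at 0 in all 3 BM libraries but had 16.3, 3.23 and 2.13 RPKM in MPP. The share of other cells in these sorts was not tested.

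The values of 3 members of that list just short of the test, chosen after their values were seen, were as follows. Csf1r, the receptor of macrophage colony-stimulating factor, had 10.8, 18.2 and 8.99 RPKM in BM BFU-E and 1.21, 0 and 0 RPKM in MPP (limma adjusted p = 0.0676). Ccr2, the chemokine receptor of inflammatory monocytes, had 21.4, 12.4 and 25.5 RPKM in BM BFU-E and 2.55, 0.534 and 0.078 RPKM in MPP (difference 3.47, limma adjusted p = 0.0676). Klf4, a transcription factor of monocytes that is also an immediate early gene, had 16.8, 25.4 and 35.8 RPKM in BM BFU-E, against 3.34, 4.86 and 1.62 RPKM in MPP (difference 2.67, limma adjusted p = 0.0676). In each of these genes all BM libraries lay above all MPP libraries.

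Cd209a, a lectin of dendritic cells and monocytes on the reverse strand at chr8:3743395-3748984, had 16.9, 7.64 and 15.8 RPKM in BM BFU-E, against 0, 0.371 and 0.238 RPKM in MPP. The groups stood apart, and the difference was 3.53 (SE 0.46, limma adjusted p = 0.0429). The stress spleen BFU-E were listed at 0 in all 3 libraries. With Irf8 it made 2 called of 13 dendritic cell genes tested (15.4%, against 0.0906% of all genes called higher), of which 12 were higher and 1 lower in BM BFU-E with a median of 0.66. Without overlap, 4 of the 13 lay higher (30.8%, against 7.04% of all genes tested). The antigen-presenting genes of that list overlapped: Cd74, the invariant chain, had 77.3, 68.2 and 73.0 RPKM in BM BFU-E and 139, 47.3 and 40.4 RPKM in MPP. Its summed RPKM was 319 to 335 in BM BFU-E and 144 to 341 in MPP.

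Markers of other cells that a sort could hold were compared next. Of 20 macrophage genes, 4 were tested, all 4 were higher in BM BFU-E with a median of 0.95, and none was called. Without overlap, 1 of the 4 lay higher (25%, against 7.04% of all genes tested). Marco and Timd4, receptors of tissue macrophages, were listed at 0 in all 6 libraries, while Apoe, which many cells make, had 444, 209 and 575 RPKM in BM BFU-E and 168, 186 and 252 RPKM in MPP. The macrophage list summed to 235 to 617 RPKM in BM BFU-E and 185 to 258 RPKM in MPP. Of its genes, 2 were at 0 in all BM libraries and 9 in all MPP libraries. Of the mast cell and basophil genes, 6 were tested, with a median of 0.96 and none called, and 3 lay higher in BM BFU-E without overlap (50%, against 7.04% of all genes tested). They summed to 192 to 354 RPKM in BM BFU-E and 136 to 171 RPKM in MPP. Prss34, a basophil protease, was seen in BM M2 alone, at 33.8 RPKM. Among 16 B cell genes in the tables, 11 were at 0 in all 3 BM libraries, among them Cd79a and Pax5, and 6 in all MPP libraries. The B cell list summed to 71.0 to 85.2 RPKM in BM BFU-E and 47.4 to 142 RPKM in MPP, most of it Cd74. Cd3e, a chain of the T cell receptor complex, was listed at 0 in all 6 libraries, and the T and NK cell list summed to 28.1 to 88.6 RPKM in BM BFU-E and 35.7 to 38.0 RPKM in MPP. Endothelial and stromal genes summed to 248 to 339 RPKM in BM BFU-E and 133 to 157 RPKM in MPP, most of it Vim, an intermediate filament gene that blood cells express too. The part of such cells in the results was not tested.

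The other 4 genes called higher belong to no list. Rgs10, a brake on G protein signalling that platelets and myeloid cells express, on the reverse strand at chr7:128373625-128418172, had 82.5, 54.4 and 127 RPKM in BM BFU-E and 15.01, 9.87 and 7.27 RPKM in MPP (difference 2.90, SE 0.37, limma adjusted p = 0.0429). Optn, the autophagy receptor optineurin, on the reverse strand at chr2:5020642-5063938, had 31.1, 28.2 and 59.7 RPKM in BM BFU-E and 4.94, 4.49 and 5.59 RPKM in MPP (difference 2.68, SE 0.34, limma adjusted p = 0.0429). Lgals1, the carbohydrate-binding protein galectin-1, on the forward strand at chr15:78926725-78930465, had 70.2, 69.7 and 123 RPKM in BM BFU-E and 9.73, 5.74 and 16.2 RPKM in MPP (difference 2.99, SE 0.39, limma adjusted p = 0.0429). In these 3 genes every BM library was several times above the highest MPP library. Lgals1 was called in none of the 6 fits that each left out 1 library, with adjusted p-values of 0.0522 to 0.230.

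Ahnak, on the forward strand at chr19:8989284-9076926, encodes a giant scaffold protein under the plasma membrane, but the table holds its short transcript of 1045 bases. It had 49.1, 29.4 and 88.4 RPKM in BM BFU-E and 4.64, 2.53 and 4.49 RPKM in MPP (difference 3.43, SE 0.43, limma adjusted p = 0.0429). The groups stood apart, yet with the BM columns of the 12-library table the difference was -0.13.

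**Figure D3:**
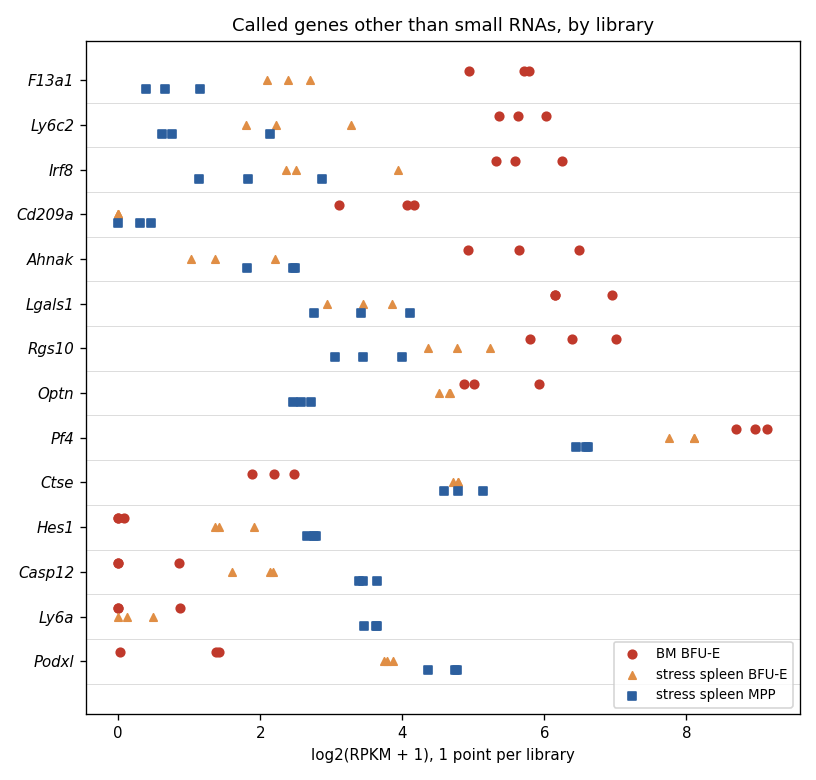
Level of the 14 called genes that are no small RNAs, as log2(RPKM + 1) on the horizontal axis, with 1 point per library for BM BFU-E (circles), stress spleen BFU-E (triangles) and stress spleen MPP (squares). In the upper 9 genes the BM points lie right of the MPP points, in the lower 5 left of them, and the stress spleen BFU-E lie with MPP for Ctse and with BM BFU-E for Ly6a.

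Of the 5 longer genes called lower, Podxl and Ctse were the most abundant in MPP. Podxl, the sialomucin podocalyxin of haematopoietic progenitors and a gene that erythropoietin induces, on the reverse strand at chr6:31519493-31563937, had 0.022, 1.66 and 1.61 RPKM in BM BFU-E, against 25.6, 19.5 and 26.2 RPKM in MPP. The difference was -3.68 (SE 0.48, limma adjusted p = 0.0429), with the groups far apart. Ctse, an intracellular aspartic protease that is also made in erythroid cells, on the forward strand at chr1:131638314-131675507, had 4.58, 2.69 and 3.57 RPKM in BM BFU-E, against 26.6, 22.96 and 34.0 RPKM in MPP (difference -2.65, SE 0.31, limma adjusted p = 0.0429). It was the one gene called lower that edgeR on the recovered reads also called, at an adjusted p of 0.0370. Of the others called lower, Ly6a, Mir5113, Mir7219 and Snord19 were not among the genes tested there.

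Casp12, a caspase tied to the endoplasmic reticulum, on the forward strand at chr9:5345476-5373034, was listed at 0 in BM 1 and BM 3 and at 0.804 RPKM in BM M2, against 9.88, 11.5 and 9.52 RPKM in MPP (difference -3.21, SE 0.43, limma adjusted p = 0.0475). Hes1, a repressor downstream of Notch receptors, on the forward strand at chr16:30065357-30067796, was listed at 0 in BM 1 and BM M2 and at 0.054 RPKM in BM 3, against 5.92, 5.74 and 5.34 RPKM in MPP (difference -2.71, SE 0.37, limma adjusted p = 0.0475). In Casp12 and Hes1, as in Ly6a, 2 of the 3 BM libraries were at 0, where a floor of 3 reads in BM 3 corresponds to 0.0898 RPKM for Casp12 and 0.161 RPKM for Hes1. Of the 1335 genes without overlap that lay lower in BM BFU-E, 418 had a BM library at 0 and 49 had all 3 at 0, and among the 7902 genes whose groups overlapped 1444 had a BM library at 0. A listed 0 does not show that a gene was off, since Rpl11, a ribosomal protein gene that every cell uses, was also listed at 0 in all 3 BM libraries, against 4.14, 5.599 and 2.87 RPKM in MPP.

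Small RNAs made up the other 5 calls, and all 5 were lower in BM BFU-E. The hairpin Mir3062 was listed at 0 in all 3 BM libraries and had 19.8, 14.9 and 14.8 RPKM in MPP (limma adjusted p = 0.0196). Mir7219 was likewise at 0 in BM BFU-E and at 12.9, 20.6 and 19.8 RPKM in MPP (limma adjusted p = 0.0196), as was Mir5113, at 12.4, 6.75 and 13.8 RPKM in MPP (limma adjusted p = 0.0429). Snord19, a small nucleolar RNA, was at 0 in BM BFU-E and at 13.8, 15.5 and 10.6 RPKM in MPP (limma adjusted p = 0.0222). Mir703 had 1.08, 3.62 and 3.59 RPKM in BM BFU-E and 24.98, 34.6 and 35.0 RPKM in MPP (difference -3.19, SE 0.40, limma adjusted p = 0.0429), and its difference was 0.040 with the BM columns of the 12-library table. A floor of 3 reads in BM 3 corresponds to 2.24 RPKM for Mir3062, 4.39 RPKM for Mir7219 and Snord19 and 2.87 RPKM for Mir5113. These MPP levels lie above what 3 reads would have given, but they rest on few reads. In MPP 1 to 3, Mir3062 had 45, 17 and 22 reads and Mir7219 had 15, 12 and 15. Snord19 had 16, 9 and 8 reads there and Mir5113 had 22, 6 and 16. The mature microRNAs of 3 of these hairpins are shown, since a total RNA library reads the precursor or its host transcript and not the mature form that would act (RefSeq, GRCm38.p6, 5′ to 3′, seed in capitals):
mmu-miR-3062-3p: cGGGGACAcacuuucuccu
mmu-miR-3062-5p: gGAGAAUGuaguguuaccguga
mmu-miR-5113: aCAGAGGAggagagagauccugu
mmu-miR-703: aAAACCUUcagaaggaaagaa
They lie at chr11:68990597-68990615 and chr11:68990638-68990659 on the reverse strand, at chr15:80940049-80940071 on the forward strand and at chr5:98475616-98475636 on the reverse strand. No seed is shared between them.

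None of the 4 host genes tested passed the test. Pfas, a purine synthesis gene that spans Mir3062 on the same strand, had 10.6, 16.8 and 15.7 RPKM in BM BFU-E and 20.8, 19.8 and 18.7 RPKM in MPP (limma adjusted p = 0.513). Tnrc6b, a partner of Argonaute that spans Mir5113, had 9.48, 7.17 and 5.48 RPKM in BM BFU-E and 8.03, 7.04 and 6.67 RPKM in MPP (limma adjusted p = 0.999). Gnl3, the nucleolar protein that hosts Snord19, had 42.1, 44.9 and 37.0 RPKM in BM BFU-E and 51.9, 60.5 and 48.3 RPKM in MPP (limma adjusted p = 0.472). Short features were lower as a class: 73 of 83 microRNA hairpins tested were lower in BM BFU-E, with a median of -1.21, as were 57 of 76 small nucleolar RNAs, with a median of -0.68. By length, the median difference was -0.85 under 200 bases and -0.13 in the longest length class. Under 200 bases, 41.7%, 15.5% and 50% of the features tested were at 0 in BM 1, BM M2 and BM 3. The part of feature length and of read loss in these 5 calls was not tested.

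Surface and matrix genes of stem cells were lower in BM BFU-E by their median, without a call. Of 30 such genes 24 were tested; 17 were lower and 7 higher, with a median of -0.59, and 10 lay lower without overlap (41.7%, against 13.4% of all genes tested). Procr, the protein C receptor that marks stem cells, had 0, 1.09 and 0 RPKM in BM BFU-E and 8.79, 5.35 and 3.60 RPKM in MPP. Tie1, a receptor-like kinase of endothelium and stem cells, had 5.44, 11.8 and 5.52 RPKM in BM BFU-E and 15.01, 17.0 and 17.3 RPKM in MPP. The 2 most abundant members did not separate in this way, with Adgrg1 at 231, 218 and 101 RPKM in BM BFU-E and 203, 183 and 195 RPKM in MPP, and Ly6e at 87.8, 96.9 and 103 RPKM in BM BFU-E and 87.2, 76.9 and 75.0 RPKM in MPP. The list median stayed below that of all genes in each of 12 alternative scalings, pseudocounts and left-out libraries. With the BM columns of the 12-library table the median itself was 0.37, against 0.87 over all genes. Of 25 transcription factors of stem and multipotent cells tested, 16 were lower, and their median of -0.20 was close to that of all genes. Hlf, a factor of stem cells, had 3.16, 4.58 and 1.41 RPKM in BM BFU-E and 10.2, 10.9 and 8.45 RPKM in MPP, whereas Gata2, which acts in stem, mast and early erythroid cells, had 120, 110 and 70.3 RPKM in BM BFU-E and 88.0, 78.1 and 72.4 RPKM in MPP. Lmo2, a bridging protein of the GATA1 and TAL1 complex, had 132, 157 and 172 RPKM in BM BFU-E and 237, 209 and 225 RPKM in MPP.

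Several genes just short of the test were lower in the same way. Col18a1, a basement membrane collagen, had 3.39, 0.104 and 0.341 RPKM in BM BFU-E and 30.3, 27.6 and 24.5 RPKM in MPP (difference -3.93, limma adjusted p = 0.0527). Nkx2-3, a homeobox factor, had 1.16, 0.031 and 0 RPKM in BM BFU-E and 10.97, 11.2 and 7.61 RPKM in MPP (difference -3.05, limma adjusted p = 0.0676). Aldh1a1, an aldehyde dehydrogenase that makes retinoic acid, had 3.63, 10.5 and 5.58 RPKM in BM BFU-E and 28.8, 30.0 and 30.0 RPKM in MPP (difference -2.12, limma adjusted p = 0.0702). Every BM library lay below every MPP library in these. Serpina3g, a serine protease inhibitor that interferon induces, had 59.6, 47.4 and 46.1 RPKM in BM BFU-E and 102, 119 and 119.7 RPKM in MPP (difference -1.14, limma adjusted p = 0.0676), but its difference was 1.37 with the BM columns of the 12-library table.

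Genes just short of the test on the other side included secreted and surface proteins. F10, clotting factor X, had 11.8, 11.8 and 16.0 RPKM in BM BFU-E and 0.954, 0.037 and 0.928 RPKM in MPP (difference 3.16, limma adjusted p = 0.0510). Cd52, a small surface glycoprotein of leukocytes, had 31.6, 40.6 and 41.5 RPKM in BM BFU-E and 9.62, 4.38 and 3.37 RPKM in MPP (difference 2.62, limma adjusted p = 0.0527). Samd14, which in mice takes part in erythroid Kit signalling, had 37.7, 42.8 and 32.2 RPKM in BM BFU-E and 14.3, 9.13 and 8.74 RPKM in MPP (difference 1.74, limma adjusted p = 0.0676). The groups stood apart in all 3. Fn1, the matrix protein fibronectin, had 17.0, 30.1 and 37.8 RPKM in BM BFU-E and 5.87, 3.76 and 3.11 RPKM in MPP (difference 2.44, limma adjusted p = 0.0676), yet its difference was -0.59 with the BM columns of the 12-library table. In all, 70 genes had an adjusted p between 0.05 and 0.10 without overlap, 36 of them higher and 34 lower in BM BFU-E, and the ones named here were chosen after their values were seen.

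No erythroid regulator, haem synthesis gene or red cell membrane gene was called. Of 23 erythroid regulators tested, 14 were higher and 9 lower, with a median of 0.16, and 5 lay higher without overlap (21.7%, against 7.04% of all genes tested). With the BM columns of the 12-library table their median fell 0.08 below that of all genes. Zfpm1, the GATA1 partner FOG1, had 212, 219 and 190 RPKM in BM BFU-E and 155, 126 and 150 RPKM in MPP. Klf1, a master regulator of red cell genes, had 5.55, 6.94 and 17.8 RPKM in BM BFU-E and 4.19, 2.68 and 6.23 RPKM in MPP. Gata1, which drives erythroid and megakaryocyte differentiation, had 41.9, 27.7 and 2.91 RPKM in BM BFU-E and 21.7, 14.9 and 26.2 RPKM in MPP, so BM 3 lay far below the other BM libraries. Haem synthesis genes had a median of -0.07 over 15 tested, and red cell membrane and globin genes -0.18 over 13. The direction of both against all genes changed between the alternatives. Car1, an erythroid carbonic anhydrase, had 25.9, 11.2 and 22.3 RPKM in BM BFU-E and 0.506, 0.698 and 3.22 RPKM in MPP (difference 3.16, limma adjusted p = 0.0702). Its relative Car2 had 102, 97.0 and 79.0 RPKM in BM BFU-E and 149, 137 and 147 RPKM in MPP. Mfsd2b, the sphingosine 1-phosphate exporter of red cells and platelets, had 63.1, 60.5 and 47.4 RPKM in BM BFU-E and 20.7, 19.7 and 20.7 RPKM in MPP (difference 1.43, limma adjusted p = 0.0510).

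Genes of erythropoietin signalling and its STAT5 targets held 1 called member of 13 tested, the lower Podxl (7.69%, against 0.101% of all genes called lower). Without overlap, 5 of the 13 lay lower in BM BFU-E (38.5%, against 13.4% of all genes tested) and 0 higher, although the list median of -0.07 was near that of all genes and changed sign against it between alternatives. Epor, the erythropoietin receptor, had 0.767, 0.931 and 2.69 RPKM in BM BFU-E and 6.33, 11.4 and 6.90 RPKM in MPP. Cish, a feedback inhibitor that STAT5 induces, had 0, 1.96 and 0.288 RPKM in BM BFU-E and 10.8, 4.65 and 4.58 RPKM in MPP. Pim2, a survival kinase, was listed at 0 in BM 1 and BM 3 and at 0.288 RPKM in BM M2, against 5.51, 5.87 and 5.65 RPKM in MPP (limma adjusted p = 0.0550), but its difference turned to 0.91 with the BM columns of the 12-library table. The kinase Pim1 had 28.3, 56.8 and 62.7 RPKM in BM BFU-E and 54.3, 42.2 and 45.9 RPKM in MPP, so the groups overlapped.

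Interferon response genes were lower in BM BFU-E by their median, with no call among 38 tested. Of these, 33 were lower and 5 higher, the median was -0.64, and 9 lay lower without overlap (23.7%, against 13.4% of all genes tested). The median was -0.98 for BM 1, -0.29 for BM M2 and -0.37 for BM 3, and stayed below that of all genes in each of 12 alternative scalings, pseudocounts and left-out libraries. With the BM columns of the 12-library table, however, the median itself was 0.30, against 0.87 over all genes. Parp9, an antiviral ADP-ribosyltransferase, had 5.30, 3.91 and 9.53 RPKM in BM BFU-E and 14.3, 14.7 and 12.4 RPKM in MPP. Igtp, an interferon-induced GTPase, had 1.87, 5.58 and 3.23 RPKM in BM BFU-E and 13.9, 7.23 and 9.34 RPKM in MPP. The more abundant Psmb8, an immunoproteasome subunit, overlapped with 68.6, 92.5 and 121 RPKM in BM BFU-E and 80.7, 71.7 and 85.3 RPKM in MPP.

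No member of the growth and metabolism lists was called. For glycolysis 16 of 17 genes tested were lower, with a median of -0.56. Pkm, the pyruvate kinase of proliferating cells, had 40.6, 56.1 and 27.8 RPKM in BM BFU-E and 79.8, 66.8 and 71.9 RPKM in MPP. For nucleotide and one-carbon synthesis 26 of 31 were lower, with a median of -0.36, and Atic, the last enzyme of purine synthesis, had 32.4, 32.5 and 21.9 RPKM in BM BFU-E and 57.2, 53.1 and 53.8 RPKM in MPP. For oxidative phosphorylation 39 of 52 were lower, with a median of -0.36. In these 3 lists the median lay above that of all genes, by 0.34, 0.45 and 0.79, with the BM columns of the 12-library table. Ribosome biogenesis genes had a median of -0.32, with 30 of 34 lower and 14 lower without overlap (41.2%, against 13.4% of all genes tested). Npm1, a nucleolar chaperone of that list, had 61.8, 64.1 and 101 RPKM in BM BFU-E and 138, 169 and 154 RPKM in MPP. Cytosolic ribosomal proteins had a median of -0.34, with 50 of 61 lower, but reads from their many processed copies cannot be told apart here. Both ribosomal lists stayed below all genes in each of 12 alternatives, although with the BM columns of the 12-library table their medians themselves were 0.79 for ribosome biogenesis and 0.12 for ribosomal proteins. DNA replication genes had a median of -0.10 over 31 tested and mitosis genes -0.25 over 32, and none was called. Mcm6, a subunit of the replicative helicase, had 137, 123 and 173 RPKM in BM BFU-E and 129.99, 118 and 130.2 RPKM in MPP, and Mki67, the marker of cycling cells, had 141, 163 and 169 RPKM in BM BFU-E and 175, 146 and 134 RPKM in MPP.

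Genes of the unfolded protein response and immediate early genes lay above all genes. Of 25 unfolded protein and integrated stress response genes tested, 17 were higher and 8 lower, with a median of 0.19, none was called, and 12 lay higher without overlap (48%, against 7.04% of all genes tested). Hspa5, the main chaperone of the endoplasmic reticulum, had 253, 324 and 278 RPKM in BM BFU-E and 189, 167 and 158 RPKM in MPP. Ddit3, the stress factor CHOP, had 33.5, 19.3 and 93.9 RPKM in BM BFU-E and 11.5, 17.0 and 8.74 RPKM in MPP. Of 21 immediate early genes, which respond within minutes and can be induced by cell handling, 13 were higher, with a median of 0.18. Jun had 298, 297 and 397 RPKM in BM BFU-E and 175, 171 and 108 RPKM in MPP, while Fos overlapped, with 80.5, 90.7 and 124 RPKM in BM BFU-E and 66.7, 84.9 and 50.3 RPKM in MPP. Both lists stayed above all genes in each of 12 alternatives, and the part of handling was not tested. No gene was called in the remaining lists, whose medians were 0.15 for adhesion and homing, 0.13 for antigen presentation, 0.10 for iron uptake and storage, 0.09 for cytokine receptors, -0.05 for replication-dependent histones, -0.24 for the glucocorticoid response, -0.32 for BMP, hedgehog and WNT signalling and -0.00 for p53 targets.

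**Figure D4:**
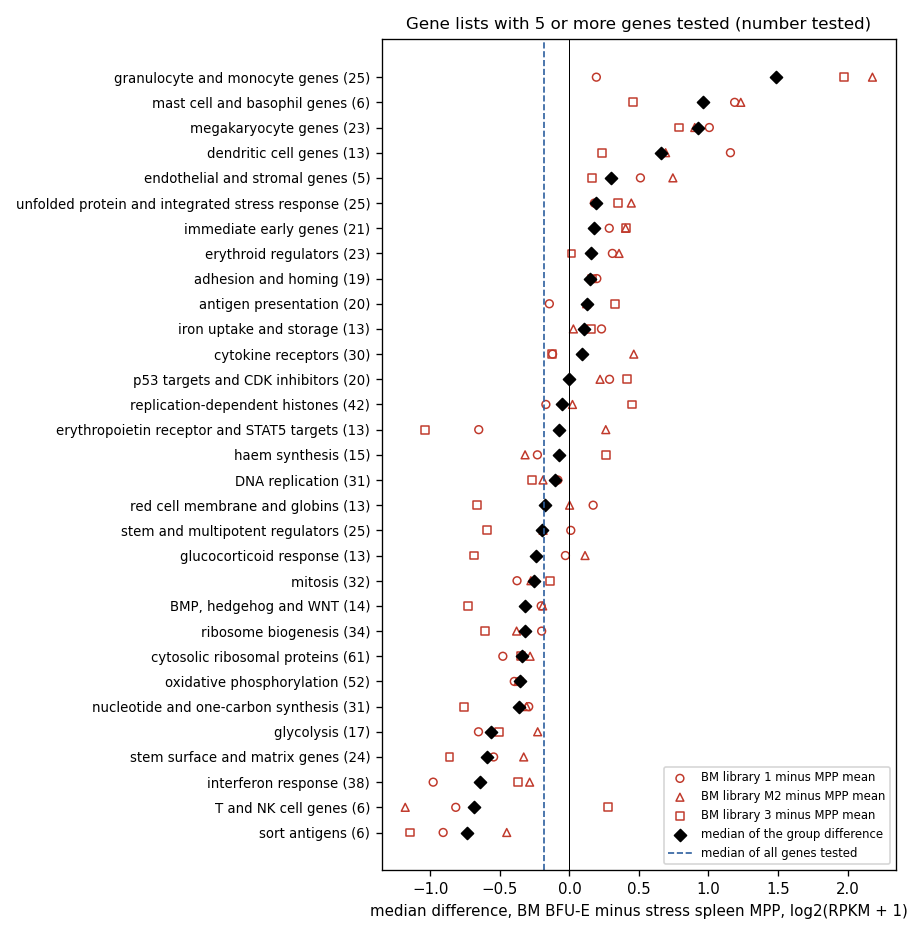
Median difference of each gene list with 5 or more genes tested, BM BFU-E minus stress spleen MPP on log2(RPKM + 1); the number tested stands in brackets. Black diamonds use all 6 libraries, open symbols set 1 BM library against the MPP mean, and the dashed line is the median of all genes tested (-0.19); the 3 BM symbols lie close together for megakaryocyte genes (0.79 to 1.01) and far apart for granulocyte and monocyte genes (0.19 to 2.18).

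Stress spleen BFU-E, which share tissue, treatment and stain with MPP and the Sca-neg gate with BM BFU-E, were fitted together with both populations over 10394 genes. Between stress spleen BFU-E and MPP 7 genes (0.0673%) were called, and between BM BFU-E and stress spleen BFU-E 127 (1.22%). Leaving out MPP 2, MPP 3 or any 1 stress spleen BFU-E library took the 7 calls to 0, while leaving out MPP 1 or any 1 BM library took them to 12 to 21. The 127 calls ran from 4 without stress spleen BFU-E library 2 to 1155 without BM M2. Both comparisons share libraries with that of BM BFU-E and MPP. In this same fit of 9 libraries, BM BFU-E against MPP gave 273 calls, 103 higher and 170 lower. The 19 calls above come from the fit of 6 libraries and are not to be set beside the 7 or the 127. Pf4 had 273, 274 and 214 RPKM in stress spleen BFU-E, so that the 3 populations did not overlap and stood in the order BM BFU-E, stress spleen BFU-E and MPP. It was 1.44 higher in stress spleen BFU-E than in MPP (limma adjusted p = 0.0199) and 0.95 higher in BM BFU-E than in stress spleen BFU-E (limma adjusted p = 0.0299). Optn had 24.2, 21.99 and 24.5 RPKM in stress spleen BFU-E and was 2.03 higher there than in MPP (limma adjusted p = 0.0489). Its difference of 0.65 between BM BFU-E and stress spleen BFU-E did not pass the test (limma adjusted p = 0.262). Rgs10 was intermediate in stress spleen BFU-E, at 36.5, 19.5 and 26.4 RPKM. For stress spleen BFU-E minus MPP the median difference was 0.86 for megakaryocyte genes, 0.06 for granulocyte and monocyte genes, -0.64 for dendritic cell genes, -0.53 for interferon response genes and -0.50 for stem surface genes, against -0.02 over all genes.

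The monocyte genes were low in stress spleen BFU-E. F13a1 had 5.48, 3.29 and 4.27 RPKM, Ly6c2 had 3.68, 2.50 and 8.65 RPKM and Irf8 had 14.4, 4.13 and 4.67 RPKM in stress spleen BFU-E. All 3 were higher in BM BFU-E than in stress spleen BFU-E, by 3.08, 3.24 and 2.78 (limma adjusted p = 0.00878, 0.0202 and 0.0430), and none passed the test between stress spleen BFU-E and MPP. Lgals1, at 13.4, 6.70 and 9.91 RPKM in stress spleen BFU-E, differed from BM BFU-E by 3.00 (limma adjusted p = 0.0116). Ctse, at 26.5, 25.2 and 26.6 RPKM in stress spleen BFU-E, lay at the level of MPP and was 2.57 lower in BM BFU-E (difference -2.57, limma adjusted p = 0.00277). Podxl, at 13.6, 12.4 and 12.7 RPKM, and Hes1, at 1.67, 1.57 and 2.77 RPKM, lay between the other populations, with differences of -2.85 and -1.54 between BM BFU-E and stress spleen BFU-E (limma adjusted p = 0.0127 and 0.0458). Casp12 had 3.42, 3.55 and 2.02 RPKM in stress spleen BFU-E and did not pass the test against BM BFU-E (difference -1.69, limma adjusted p = 0.0597).

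**Figure D5:**
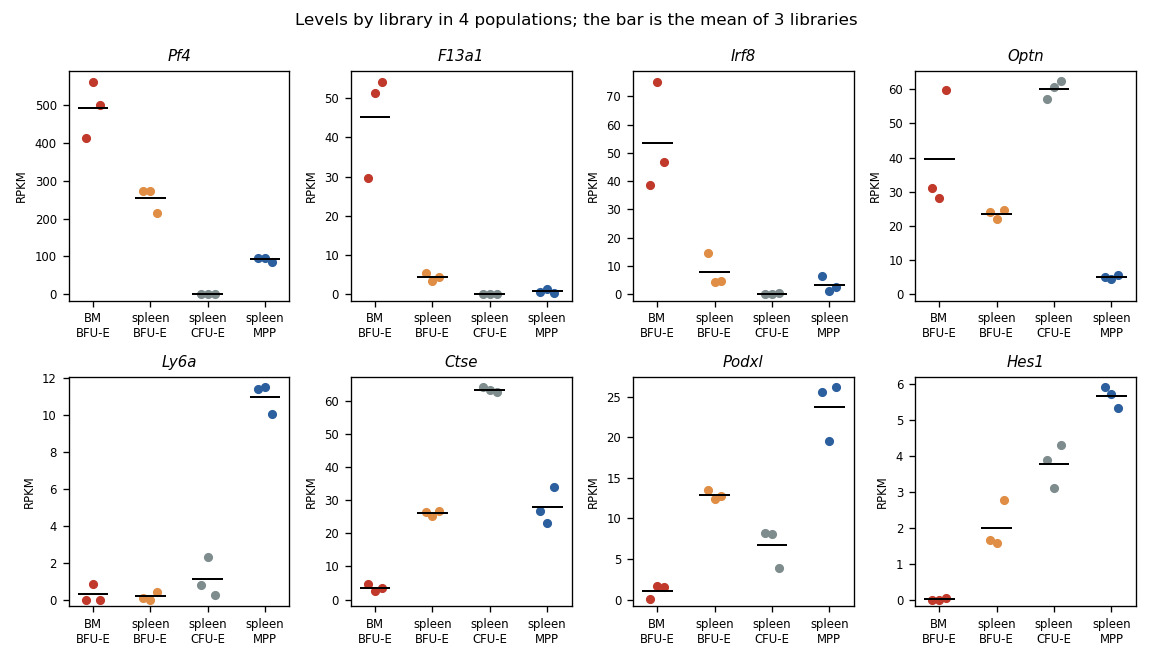
Level in RPKM of 8 called genes in BM BFU-E, stress spleen BFU-E, stress spleen CFU-E and stress spleen MPP, with 1 point per library and a bar at the mean of 3 libraries. Pf4, F13a1 and Irf8 are highest in BM BFU-E, Ly6a, Podxl and Hes1 are highest in MPP, and Ctse and Optn reach their highest means in CFU-E, at 63.3 and 60.0 RPKM.

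Accessible chromatin of BM BFU-E was compared with the calls as a separate readout. The authors' merged peak list of 3 BM ATAC-seq libraries holds 35142 distinct peaks, each with the authors' score. The series lists no ATAC-seq of MPP, and that of stress spleen BFU-E was not used here. A peak lay within 1000 bases of the start of 8798 of 9766 genes tested, or 90.1%. Of the 9 genes called higher in BM BFU-E 5 had one, with scores of 1000 for Pf4, Optn and Irf8, 770 for Rgs10 and 633 for Ahnak. F13a1, Ly6c2, Lgals1 and Cd209a had none. Of the 5 longer genes called lower, Ctse, Podxl and Hes1 had one, with scores of 883, 529 and 834, while Ly6a and Casp12 had none. The share was 84.6% among genes that lay higher in BM BFU-E without overlap and 88.2% among those that lay lower. In each class of BM level it was smaller among the higher genes. It was 69.5% against 83.4% at 0 to 5 RPKM and 85.6% against 91.8% at 5 to 20 RPKM. At 20 RPKM or more it was 87.8% against 98.0%. No test was run on these shares.

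The 250 bases before the start of Pf4 and Irf8, which lie in or beside a top-scored peak, and of F13a1 and Ly6c2, which have no peak there, are shown to set starts with and without a peak side by side among the called megakaryocyte and monocyte genes (RefSeq, GRCm38.p6, 5′ to 3′ on the gene's strand). Capitals mark matches to the ETS motif AGGAAG or to the RUNX motif TGTGGT, both strands searched:
Pf4: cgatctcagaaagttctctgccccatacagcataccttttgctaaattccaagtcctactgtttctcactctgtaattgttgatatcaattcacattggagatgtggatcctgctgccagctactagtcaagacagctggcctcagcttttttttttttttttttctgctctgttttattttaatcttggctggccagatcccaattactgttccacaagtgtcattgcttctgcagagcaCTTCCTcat
Irf8: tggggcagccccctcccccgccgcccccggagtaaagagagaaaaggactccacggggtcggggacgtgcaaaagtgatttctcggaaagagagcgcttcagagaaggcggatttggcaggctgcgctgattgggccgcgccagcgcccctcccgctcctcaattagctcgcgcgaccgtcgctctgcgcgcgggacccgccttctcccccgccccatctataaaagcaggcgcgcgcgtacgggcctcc
F13a1: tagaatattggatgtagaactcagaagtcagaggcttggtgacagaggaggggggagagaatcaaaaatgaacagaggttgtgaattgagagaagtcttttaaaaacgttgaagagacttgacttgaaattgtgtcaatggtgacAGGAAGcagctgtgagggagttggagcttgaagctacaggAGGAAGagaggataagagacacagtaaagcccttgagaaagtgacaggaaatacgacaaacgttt
Ly6c2: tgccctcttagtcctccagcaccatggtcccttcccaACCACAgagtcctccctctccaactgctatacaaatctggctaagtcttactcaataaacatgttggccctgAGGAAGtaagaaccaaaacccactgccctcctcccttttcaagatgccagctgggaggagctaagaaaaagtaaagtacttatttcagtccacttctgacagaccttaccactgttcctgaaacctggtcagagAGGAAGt
The Irf8 stretch holds neither motif. The 4 stretches span chr5:90772185-90772434 on the forward strand, chr8:120736108-120736357 on the forward strand, chr13:37050245-37050494 on the reverse strand and chr15:75111938-75112187 on the reverse strand. The Pf4 peak runs over chr5:90771643-90772853 and the Irf8 peak over chr8:120735836-120736514. RefSeq promoter windows, which run from 250 bases before to 50 after the start, were found for 9 of the 14 longer called genes and not for Ctse, Lgals1, Podxl, Ly6a and Hes1. The ETS motif was in 5 of those 9, against 35.4% of all 32851 such windows, the RUNX motif in 1, against 16.8%, and the GATA motifs AGATAA or TGATAA in 1, Pf4, against 18.6%. A match describes the letters of the window and is no bound site.

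The choice of BM columns changed the values. In the 12-library table the BM columns come from other reads than those used here: their totals come to 17262000, 18052000 and 17792000 reads, and they correlate with the columns of the same number at 0.803, 0.858 and 0.766. With them 6716 of 11066 genes tested were called, 5258 higher and 1458 lower, and the median of all genes moved to 0.87. The median of replication-dependent histones, 0.13 above that of all genes with the columns used here, lay 5.03 below it with them. In the other alternatives it lay between -0.20 and 0.36 from that of all genes. The calls kept were 17 of the 19, all but Ahnak and Mir703. Most genes passed there, so this is little support for the 17. The deposited BM counts match the columns used here to within 2% in 100% of the 7031 to 8363 genes compared per library, which is why those were taken. The match does not show which BM columns are the labelled libraries. On the recovered reads edgeR called 15 genes, 11 higher and 4 lower, and 6 of the 19 were among them: Pf4, F13a1, Irf8, Rgs10, Optn and Ctse. Of the 19, Ahnak, Ly6a, Mir5113, Mir7219 and Snord19 were not among the genes tested there. Pf4 and F13a1 stayed called in 4 of the 6 fits that each left out 1 library, all but those without MPP 2 or MPP 3, and the other 17 calls were kept in 3 or fewer.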

How the data were processed

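RNA from sorted cells was made into libraries with a SMARTer Pico kit for stranded total RNA and sequenced on a HiSeq3000, per the labels' protocols. STAR 2.6.0b-1, HOMER 4.8, Bowtie2 2.3.4.2 and DESeq2 are named in the submitters' processing notes, with mm10. RPKM values were deposited by the authors in 2 tables, and per the file headers HOMER's analyzeRepeats made them from exon reads with 1 transcript kept per gene; the strand setting is not given in the sources used here. Raw counts were deposited by the authors in 2 tables, of which that of both BFU-E populations keeps genes by their mean count. The score of each ATAC-seq peak is as the authors deposited it, and the peak caller is not given in the sources used here.

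BM columns were taken from the RPKM table that holds the BFU-E of marrow and spleen, and were joined by transcript identifier to the MPP columns of the 12-library RPKM table. One BM column, M2, lacks the full name and was assigned by its group; 0 columns belonged to other series. Genes with at least 1 RPKM in 3 libraries were kept, log2(RPKM + 1) was tested in limma 3.58.1 (R 4.3.3) with a mean trend on the 6 libraries, and p-values were adjusted by Benjamini-Hochberg. A called gene has an adjusted p under 0.05. The RPKM steps gave whole reads within 0.1 read in 100% of values, and edgeR 4.0.16 was run on these reads and on the joined counts. DESeq2 1.42.0 was run on the joined counts. The code was tested on simulated data.

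Named genes were the 12 largest differences in each direction that were called, did not overlap and had a mean of at least 5 RPKM in the higher group, up to 3 called members of each list in each direction, the 2 most abundant tested members of a list without a call, and the sort antigens. Other named genes were chosen after their values were seen. The members and lists were chosen with earlier results of these data known. Alternatives covered the pseudocount, the filter, the scaling, the BM columns, the test and each library left out. Values of 2 list members are not reported here.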

Additional observations from a re-analysis of the deposited data

Results flagged for a closer look

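For 14 of the 19 called genes the difference from MPP was not the same in both BFU-E populations. The test was limma's (BH) of BM BFU-E against stress spleen BFU-E in the fit of 9 libraries, which share the MPP libraries. Over all 10394 genes of that fit, 127 (1.22%) passed. The 19 genes were picked with the same BM libraries. That choice by itself raises the share that passes, so the 14 are no separate support. BM BFU-E were higher than stress spleen BFU-E by 4.16 for Ahnak (adjusted p = 0.00878), 3.78 for Cd209a (0.00380), 3.24 for Ly6c2 (0.0202), 3.08 for F13a1 (0.00878), 3.00 for Lgals1 (0.0116), 2.78 for Irf8 (0.0430) and 0.95 for Pf4 (0.0299). They were lower for the other 7, with differences of -5.03 for Mir7219 (adjusted p = 8.53e-05), -4.06 for Mir3062 (0.00277), -2.86 for Mir703 (0.00878), -2.85 for Podxl (0.0127), -2.62 for Snord19 (0.0202), -2.57 for Ctse (0.00277) and -1.54 for Hes1 (0.0458). Of these 14 genes, Pf4 alone also passed the test between stress spleen BFU-E and MPP. Rgs10 (1.61, adjusted p = 0.0677), Casp12 (-1.69, 0.0597), Mir5113 (-1.64, 0.149), Optn (0.65, 0.262) and Ly6a (0.08, 0.923) did not pass the test between the BFU-E populations.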

How the results depend on the processing

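The 19 genes called between BM BFU-E and MPP (9 higher, 10 lower) became 4 with a pseudocount of 0.1 RPKM, 34 with 5 RPKM, 0 with no filter on low values (1684 genes at an unadjusted p under 0.05), 4 with a mean of at least 5 RPKM, 49 with quantile normalisation (33 higher, 16 lower), 542 with DESeq2 (337 higher, 205 lower), 650 in a fit of 12 libraries (218 higher, 432 lower), 38 without the mean trend (12 higher, 26 lower) and 6716 with the BM columns of the 12-library table. Scaling to one median gave 24 (14 higher, 10 lower), array weights 26, edgeR on joined counts 21 (17 higher, 4 lower) and joining by gene symbol 26, the last of which was added after seeing the data. Leaving out 1 library gave 0 to 62 calls. The 7 calls between stress spleen BFU-E and MPP became 3 with a pseudocount of 0.1 RPKM, 11 without the filter, and 0 to 21 with 1 library left out. The 127 calls between BM BFU-E and stress spleen BFU-E became 79, 73, and 4 to 1155 in the same settings, all added after seeing the data. With the BM columns of the 12-library table the median of all genes turned from below to above 0, at 0.87, and so did the list medians of glycolysis (1.21), nucleotide synthesis (1.32), oxidative phosphorylation (1.67), interferon response (0.30), stem surface genes (0.37) and both ribosomal lists (0.12 and 0.79). Among the called genes and those named with a difference, the differences that turned round were those of Ahnak (-0.13), Mir703 (0.040), Cd24a (0.66), Fn1 (-0.59), Pim2 (0.91) and Serpina3g (1.37). The cause was not tested.

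Libraries of the same number did not deviate together (correlations of -0.00 to -0.04 over genes), and pairs of unlike number gave -0.03 to 0.05. The labels link them by number alone, and whether they shared a batch was not tested. With the replicate block on numbers 1 and 3, limma called 0 genes (1102 at an unadjusted p under 0.05), and edgeR on joined counts with the replicate block called 2. In the limma block BM M2 and MPP 2 each stood alone, so only the libraries numbered 1 and 3 were paired. So few libraries were left for the spread that its 0 calls say little. Up to 15.4% of the genes tested were at 0 in a BM library and up to 0.624% in an MPP library. MPP 2, at 0.624%, has fewer reads (10972000) than BM 3 (12885000), at 15.4%. Within MPP the share at 0 rose as the read totals fell. BM 3 has the fewest reads of the BM libraries and the most genes at 0. BM M2, at 1.68%, has fewer reads than BM 1, at 6.31%. The part of read depth was not tested.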
